A study of Mus musculus with 18 samples.

Results

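Heat shock chaperones were described in 18 bulk poly-A RNA-seq libraries, each made from splenic CD8 T cells of wild-type (WT) mice that were FACS-sorted and used fresh. The group was 10 genes, chosen by symbol from the 56748 gene IDs of the deposited count tables: Hspa1a, Hspa1b, Hspa8, Hsph1, Dnajb1, Dnaja1, Hsp90aa1, Hsp90ab1, Hspd1 and Hspe1. Each of 3 diets had 6 libraries and lasted 12 weeks. SW mice ate a high fat diet over the first 6 weeks and a normal diet over the other 6, HFD mice were on high fat diet throughout, and ND mice were on normal diet throughout. The labels give no strain, age or sex, no composition of the diets and no statement that each library was a separate mouse. The p-values therefore measure the spread between these samples, part of which may be technical. The series title names a transient high fat diet and a lasting susceptibility of CD8 T cells to ferroptosis, an iron-dependent form of cell death. The question here was whether chaperone RNA differed between the diets in these freshly isolated cells.

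Chaperones bind unfolded or partly folded proteins, keep them from clumping and help them reach their native shape. The HSP70 proteins do this in cycles of ATP use that are started by HSP40 partners (the DNAJ proteins) and reset by nucleotide exchange factors such as HSP110, and they pass clients on to HSP90, which matures kinases and steroid receptors. In the mitochondrion the HSP60 barrel and its HSP10 lid fold imported proteins. Under heat or other proteotoxic stress the transcription factor HSF1 binds inverted repeats of a short heat shock element and raises several of these genes together, most steeply the stress-inducible HSP70 genes, which are low in unstressed cells. T cells also make more of several chaperones once activated, and tissue dissociation and cell sorting are known to induce some of them.

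Inverted pairs of the element stood close to the starts of several of these genes, and the windows below show them in capitals. RefSeq starts (GRCm38.p6) were matched for 7 members, with 12 starts in all. Hspa8, Hsp90aa1 and Hsp90ab1 had no entry in the table used. The letters GAANNTTC or TTCNNGAA, each the same on both strands, were found in the 250 bases before a start of 6 of the 7 members, Dnajb1 being the other. The same letters were in 12.8% of all 32851 windows of this length and in at least 1 window of 14.5% of 27025 genes. A run of 3 units, GAANNTTCNNGAA or TTCNNGAANNTTC, which contains the shorter letters, was in 0.466% of windows and 0.514% of genes, and the shared Hspd1 and Hspe1 start region held it. A match of letters is a description and shows no binding. Each line gives the strand of its gene, 5′ to 3′.
Hspd1, chr1:55088053-55088082, minus strand: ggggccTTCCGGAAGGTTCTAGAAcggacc
Hspe1, chr1:55088053-55088082, plus strand: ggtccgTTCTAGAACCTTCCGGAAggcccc
Dnaja1, chr4:40722333-40722362, plus strand: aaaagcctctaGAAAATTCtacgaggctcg
Hsph1, chr5:149636351-149636380, minus strand: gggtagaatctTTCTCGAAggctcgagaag
Hspd1 and Hspe1 lie head to head, and their lines are the 2 strands of 1 stretch. The letters in capitals begin 144 bases before a matched start of Hspd1 and 89 bases before one of Hspe1. The match of Dnaja1 lay from 124 to 117 bases before a start, and that of Hsph1 from 33 to 26 bases before the nearer of its starts. The other matched starts of Hspd1 and Dnaja1 had no match in the 250 bases before them. These windows overlap annotated exons, of Hspd1 for the shared stretch, of Dnaja1 and Gm6297, and of Hsph1.

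The stress-inducible HSP70 pair, Hspa1a and Hspa1b, are neighbouring copies on chromosome 17, and the 150 bases before their starts are printed because their reads and their levels have to be read together. Both stretches held GAAGATTC, from 104 to 97 bases before the start.
Hspa1a, chr17:34972157-34972306, minus strand: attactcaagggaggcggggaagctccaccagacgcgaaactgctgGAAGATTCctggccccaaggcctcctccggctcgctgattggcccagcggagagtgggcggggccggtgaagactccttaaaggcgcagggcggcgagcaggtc
Hspa1b, chr17:34959239-34959388, minus strand: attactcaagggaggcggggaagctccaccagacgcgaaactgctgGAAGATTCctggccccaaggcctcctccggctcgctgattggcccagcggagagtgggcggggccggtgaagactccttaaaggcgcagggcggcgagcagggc
Over the 250 bases before the starts the copies differed at 3 positions, C44T, T47C and T249G, counted from 1 at the end farthest from the start with the Hspa1a base given first; only the last lies in the printed stretch. Of the 100-base windows of the Hspa1a transcript 47.1% were identical in the Hspa1b transcript, and of those of Hspa1b 49.9% were identical in Hspa1a. How reads that match both copies were counted is not given in the sources used here, so how the counts divide between these genes is uncertain.

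Total counts lay between 11947339 and 16398340 per library, and the 10 chaperone genes together took 0.456% to 0.718% of them. All 10 passed the filter on low counts that left 13690 genes for testing. Markers of CD8 T cells summed to 5685 to 6046 CPM (a gene's share of the library's counts, scaled by edgeR's normalisation) in SW, 5601 to 6250 in HFD and 5651 to 6145 in ND libraries, and the CD4 T cell markers summed to at most 13.4 CPM. B cell markers summed to 514 to 630 CPM in SW, 538 to 692 in HFD and 489 to 548 in ND libraries. For HFD against ND 6 of 6 tested B cell markers were above 0, beside 52.4% of all tested genes. The part of B cells in the chaperone levels was not tested. Replicates 1 and 2 of each diet were also analysed apart from replicates 3 to 6, a division taken from earlier results of these data; what a replicate number stands for is not in the labels. Calls were made with edgeR's quasi-likelihood test, fitted over all 13690 genes and all 18 libraries, where the p adjusted by the method of Benjamini and Hochberg fell under 0.05.

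Levels differed by more than 100-fold between members, which the deposited FPKM values show because they are scaled by gene length. Hsp90ab1, the constitutive cytosolic HSP90, had the highest mean over the 18 libraries, 693 FPKM with a range of 562 to 834. Hspa8, the constitutive cytosolic HSP70, followed at 559 FPKM with a range of 401 to 707, so these neighbours in the order overlapped. Hspe1, the mitochondrial HSP10, averaged 156 FPKM (140 to 177), and Hsp90aa1, the inducible cytosolic HSP90, averaged 99.7 FPKM (70.4 to 132). Hspd1, the mitochondrial HSP60, averaged 84.3 FPKM (69.3 to 109) and overlapped Hsp90aa1. The HSP40 genes Dnaja1, at 30.1 to 66.1 FPKM, and Dnajb1, at 33.9 to 71.7 FPKM with a mean of 49.5, could not be ordered, and Hsph1, the HSP110, averaged 29.3 FPKM (14.6 to 46.9). The inducible HSP70 genes were lowest, with medians of 1.05 FPKM for Hspa1b and 0.241 FPKM for Hspa1a, although single libraries reached 94.3 and 15.6 FPKM.

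Variation between libraries of 1 diet set the members apart as much as their levels did. The within-diet SD of log2 CPM was 2.13 for Hspa1b and 2.02 for Hspa1a, wider than in over 99.9% of the tested genes, whose median was 0.175. For Hsph1 it was 0.50, and 87.1% of tested genes had a smaller one. Hsp90aa1, Dnajb1, Dnaja1, Hspa8, Hsp90ab1 and Hspd1 lay between 0.28 and 0.19. Hspe1 was the steadiest, with an SD of 0.097 that only 15.3% of tested genes undercut. Without the library HFD 1 the SD of Hspa1a was 1.56 and that of Hspa1b was close to it.

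**Figure D1:**
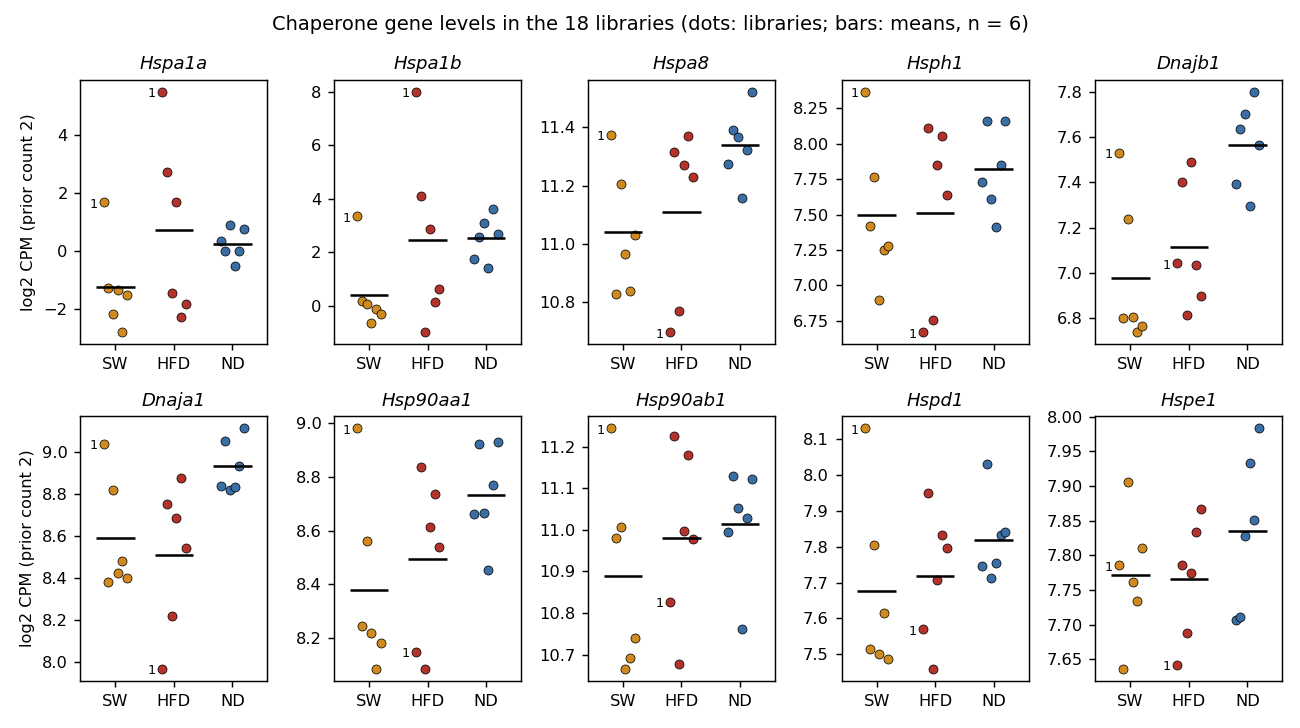
Level of each of the 10 chaperone genes in every library on the log2 CPM scale (y axis, prior count 2, a separate range for each gene) by diet (x axis); dots are libraries, black bars are means of 6 libraries, and the digit 1 marks SW 1 and HFD 1. HFD 1 is the highest library for Hspa1a and Hspa1b and the lowest for Hspa8, Hsph1 and Dnaja1, and SW 1 is the highest SW library for every gene except Hspe1.

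Across the group, SW against ND asks what remained after 6 weeks back on normal diet. No member was called, and 0.0146% of all tested genes, 2 of 13690, were. All 10 fold changes were below 0, with a median of -0.31 on the log2 scale. Over all tested genes the median was 0.00 and 49.1% were below 0. Most members varied together over the libraries, as given further below. Counts of members, here and in the comparisons that follow, are therefore not counts of separate observations. Unadjusted p-values under 0.05 were held by 3 of 10 members, Hspa8, Dnajb1 and Dnaja1, all lower, and by 6.81% of all tested genes, 3.37% lower. Without SW 1 it was 6 of 10 members beside 8.46% of all tested genes. Without HFD 1 and SW 1 it was 8 of 10 beside 9.01%. SW 1 was the highest SW library for every member except Hspe1, so leaving it out lowers the SW mean of those members. The share of all tested genes is therefore not an equal comparison for these fits. The count was 1 of 10 without SW 2, SW 5 or ND 6, beside 6.69%, 5.49% and 7.25%. Within replicates 3 to 6, which leave out HFD 1 and SW 1 as well, it was 7 of 10 beside 7.55%. No member was called in any of these fits. Within replicates 1 and 2, where SW 1 is 1 of 2 SW libraries, it was 0 beside 4.79%, and the fold changes of Hspa1a, Hspa1b, Hsph1 and Hsp90ab1 were above 0.

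For HFD against ND, which compares continued high fat diet with normal diet, no member was called either, and 1.62% of all tested genes, 222, were. Below 0 were 8 of 10 fold changes, and the median was -0.15 while the mean was 0.42, because Hspa1a and Hspa1b stood at about 3; over all tested genes the median was 0.01. Unadjusted p-values under 0.05 were held by 4 of 10 members, lower for Dnajb1 and Dnaja1 and higher for Hspa1a and Hspa1b, and by 14.9% of all tested genes, 7.09% lower and 7.79% higher. Without HFD 1 only Dnajb1 and Dnaja1 remained of these, again beside 14.9% of all tested genes.

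SW against HFD compares the switch with the continued diet. No member was called, and 0.124% of all tested genes, 17, were. Unadjusted p-values under 0.05 were held by Hspa1a and Hspa1b only, 2 of 10 members and both lower, where 11.1% of all tested genes held one, 5.64% lower. Without HFD 1 none of the 10 held one, beside 10.7% of all tested genes. Without HFD 1 and SW 1, left out together after seeing the data, the count was 6 of 10, beside 12.0%. SW 1 was the highest SW library for every member except Hspe1. HFD 1 was the lowest HFD library for Hspa8, Hsph1, Dnaja1 and Hspe1. Leaving both out therefore lowers SW and raises HFD for such members, and the share of all tested genes is not an equal comparison. With all 18 libraries, the fold changes of the 8 members other than Hspa1a and Hspa1b lay between -0.12 and 0.07. Their 95% intervals were widest for Hsph1, from -0.65 to 0.56, and narrowest for Hspe1, from -0.11 to 0.13, and a difference inside these bounds could not be told from none. In the test of any difference among the 3 diets no member was called, and 0.898% of tested genes, 123, were; Dnajb1 had an unadjusted p of 0.00459 and an adjusted p of 0.143. It was called in that test by DESeq2, in edgeR without SW 1 and in edgeR without both HFD 1 and SW 1. SW 1 was the highest SW library for Dnajb1, so leaving it out lowers the SW mean of this gene.

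**Figure D2:**
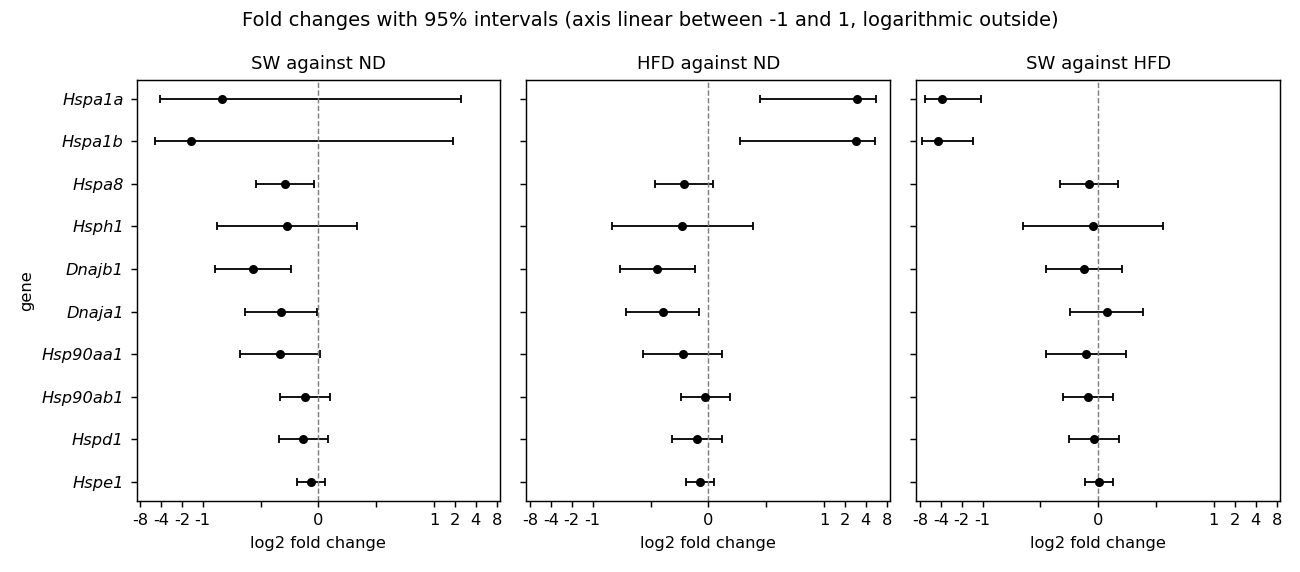
Log2 fold change of each chaperone gene (x axis, linear between -1 and 1 and logarithmic outside) with its 95% interval for SW against ND, HFD against ND and SW against HFD; points are edgeR estimates from 6 libraries per diet. All 10 points lie below 0 for SW against ND, Dnajb1 and Dnaja1 lie below 0 with intervals that leave out 0 for both diets against ND, and the intervals of Hspa1a and Hspa1b are the widest.

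Hspa1b (ENSMUSG00000090877, chr17:34956436-34959238, minus strand of GRCm38 in GENCODE M21, as for the coordinates that follow), an inducible cytosolic HSP70, ranged most widely in HFD. Its lowest, median and highest levels were 0.497, 0.839 and 10.1 CPM in SW, 0.366, 4.29 and 254 CPM in HFD, and 2.52, 6.01 and 12.1 CPM in ND libraries. The 5 SW libraries other than SW 1 were at 0.991 CPM or lower and below every ND library, while the HFD libraries lay on both sides of ND, with 2 above all ND libraries and 3 below all. HFD 1 held 254 CPM, from 3746 reads, and the next HFD library, HFD 2, held 16.8 CPM. Hspa1a (ENSMUSG00000091971, chr17:34969190-34972156, minus strand), its near copy, had lowest, median and highest levels of 0, 0.226 and 3.04 CPM in SW, 0.0637, 1.64 and 44.5 CPM in HFD, and 0.55, 0.99 and 1.68 CPM in ND libraries. HFD 1 and SW 1 were the highest libraries of their diets for this gene as well. Neither gene was called in any comparison.

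For SW against ND the log2 fold change was -1.48 ± 1.56 (SE) for Hspa1b and -0.83 ± 1.53 for Hspa1a, with adjusted p-values of 0.962 and 0.994 in edgeR's quasi-likelihood test. Without SW 1 the value of Hspa1a was -2.73 and that of Hspa1b was lower still, with edgeR adjusted p-values of 0.775 and 0.746. For HFD against ND the log2 fold change was 2.90 ± 1.23 for Hspa1b and 3.03 ± 1.21 for Hspa1a, with edgeR adjusted p-values of 0.283 and 0.248. Without HFD 1 the value of Hspa1b was -0.27 and that of Hspa1a 0.82, so that 1 library decided the sign of the first and most of the size of the second. Within replicates 3 to 6 both were below 0, at -1.56 for Hspa1b and -0.41 for Hspa1a, and within replicates 1 and 2 they were 4.94 and 4.69. An exact two-sided permutation test of the mean log2 CPM of 6 HFD and 6 ND libraries gave p = 0.970 for Hspa1b and p = 0.723 for Hspa1a. For SW against HFD the log2 fold change was -4.37 ± 1.41 for Hspa1b and -3.86 ± 1.32 for Hspa1a in edgeR, with adjusted p-values of 0.262 and 0.287, and without HFD 1 it was -1.20 and -1.63. With the counts of both copies added as 1 gene, the log2 fold change was -1.36 for SW against ND, 2.92 for HFD against ND and -4.28 for SW against HFD, and none was called.

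HFD 1 also held the highest sum of the 7 dendritic cell markers, 1761 CPM, where SW libraries lay at 514 to 939, the other HFD libraries at 811 to 1048 and ND libraries at 438 to 1161 CPM. All 7 were detected in every library. Over the 18 libraries most reads of this list were from Cd74, H2-Ab1 and H2-Aa, at 108174, 56372 and 41596 reads. Flt3, Itgax, Xcr1 and Siglech had 4518, 6420, 3405 and 468 reads and added little to the sum. In HFD 1 the 11 markers of monocytes, macrophages and neutrophils summed to 273 CPM. SW libraries lay at 88.8 to 131, the other HFD libraries at 117 to 159 and ND libraries at 79.2 to 183 CPM. Of that list Mpeg1 had 26255 reads over the 18 libraries, and Cd68, the next highest, had 2756. Cd14 had 25 reads and was at 0 in 8 of the 18 libraries. The 9 erythroid markers summed to 168 CPM in HFD 1 and 349 CPM in HFD 4, where SW libraries lay at 36.0 to 94.7, the other HFD libraries at 16.7 to 95.4 and ND libraries at 18.2 to 46.1 CPM. Of the tested markers 7 of 7 dendritic, 8 of 9 myeloid and 7 of 7 erythroid genes were above 0 for HFD against ND, none of them called. Of all tested genes 52.4% were above 0 in this comparison. SW 1, the SW library highest in Hspa1b, had 725 CPM of dendritic cell and 117 CPM of myeloid markers, inside the range of the other SW libraries. The part of these other cells in the Hspa1a and Hspa1b levels was not tested. In bulk libraries more cells carrying an RNA and more RNA per cell cannot be told apart.

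Hspa8 and Hsph1 act with the inducible pair in the same cycle, as the constitutive HSP70 and as its HSP110 exchange factor, and both were at their lowest in HFD 1, where that pair was highest. Hspa8 (ENSMUSG00000015656, chr9:40800984-40810087, plus strand) had lowest, median and highest levels of 1816, 2047 and 2657 CPM in SW, 1659.8, 2435 and 2649 CPM in HFD, and 2287, 2601 and 2942 CPM in ND libraries. In SW 4 of 6 libraries lay below every ND library. The log2 fold change was -0.29 ± 0.12 for SW against ND, with an unadjusted p of 0.0233 and an adjusted p of 0.633 in edgeR, and -0.21 ± 0.12 for HFD against ND, with an adjusted p of 0.418. Hsph1 (ENSMUSG00000029657, chr5:149614287-149636376, minus strand) had lowest, median and highest levels of 119, 163 and 330.0 CPM in SW, 102, 215 and 276 CPM in HFD, and 169.9, 222 and 286 CPM in ND libraries. The diets overlapped widely, and the highest library of all was SW 1. Its log2 fold change was -0.27 ± 0.28 for SW against ND and -0.22 ± 0.28 for HFD against ND, with edgeR adjusted p-values of 0.960 and 0.777; without SW 1 the first was -0.50, and without HFD 1 the second was -0.10.

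Among the HSP40 genes, Dnajb1 held the smallest unadjusted edgeR p of all 10 members in both comparisons with ND. Dnajb1 (ENSMUSG00000005483, chr8:83608193-83612653, plus strand), the inducible HSP40 that hands unfolded clients to HSP70, had lowest, median and highest levels of 107, 112 and 185 CPM in SW, 112, 131 and 179 CPM in HFD, and 157, 194 and 223 CPM in ND libraries. Of the SW libraries 5 of 6, and of the HFD libraries 4 of 6, lay below every ND library. Means were 129 ± 31.9 CPM in SW, 140.5 ± 27.2 CPM in HFD and 191 ± 24.7 CPM in ND (SD, n = 6 each). The log2 fold change was -0.56 ± 0.15 for SW against ND, with a 95% interval of -0.89 to -0.24, an unadjusted p of 0.00209 and an adjusted p of 0.304 in edgeR. For HFD against ND it was -0.44 ± 0.15, with an interval of -0.77 to -0.11, an unadjusted p of 0.011 and an adjusted p of 0.175. Neither was called. Both comparisons use the same ND libraries. Within replicates 3 to 6 the values were -0.70 for SW and -0.53 for HFD against ND, and within replicates 1 and 2 they were -0.31 and -0.28. The exact permutation test of mean log2 CPM gave p = 0.00866 for SW against ND and p = 0.0152 for HFD against ND, where the smallest p that 6 against 6 libraries allow is 0.00216.

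Dnaja1 (ENSMUSG00000028410, chr4:40722150-40737149, plus strand), a constitutive HSP40 with a lipid-modified end, had lowest, median and highest levels of 333, 349.9 and 525 CPM in SW, 249.8, 392 and 469 CPM in HFD, and 451, 472 and 552 CPM in ND libraries. Of the SW libraries 4 of 6, and of the HFD libraries 5 of 6, were below every ND library. The log2 fold change was -0.32 ± 0.15 for SW against ND and -0.40 ± 0.15 for HFD against ND, with unadjusted p-values of 0.0436 and 0.0165 and adjusted p-values of 0.717 and 0.208 in edgeR. Of the annotated exonic bases of Dnaja1 7.05% are shared with Smu1 on the other strand. Of those of Hspa1a 19.0% are shared with Gm20481, also on the other strand, to which 0 reads were assigned. Whether counting used the strand is not stated.

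HSP90 genes overlapped between the diets. Hsp90aa1 (ENSMUSG00000021270, chr12:110690605-110702728, minus strand) had lowest, median and highest levels of 272, 301 and 505 CPM in SW, 272, 382 and 457 CPM in HFD, and 351, 421 and 487 CPM in ND libraries. In SW 4 of 6 libraries lay below every ND library and SW 1 above all. Its log2 fold change was -0.33 ± 0.16 for SW against ND and -0.22 ± 0.16 for HFD against ND, with edgeR adjusted p-values of 0.75 and 0.563. Hsp90ab1 (ENSMUSG00000023944, chr17:45567775-45573271, minus strand) averaged 1915 ± 312 CPM in SW, 2038 ± 289 CPM in HFD and 2076 ± 184 CPM in ND (SD, n = 6 each). The differences of Hsp90ab1 were smaller than the spread within each diet, with log2 fold changes of -0.12 ± 0.10 for SW against ND and -0.03 ± 0.10 for HFD against ND and edgeR adjusted p-values of 0.932 and 0.937.

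Hspd1 and Hspe1, the mitochondrial HSP60 and HSP10, had log2 fold changes between -0.13 and 0.01 in the 3 comparisons. Hspd1 (ENSMUSG00000025980, chr1:55077835-55088243, minus strand) averaged 207 ± 39.3 CPM in SW, 212 ± 26.0 CPM in HFD and 226 ± 18.6 CPM in ND, and Hspe1 (ENSMUSG00000073676, chr1:55088132-55091307, plus strand) averaged 219 ± 13.5 CPM in SW, 218 ± 12.8 CPM in HFD and 229 ± 17.9 CPM in ND (SD, n = 6 each). The 95% interval of the log2 fold change of Hspe1 ran from -0.18 to 0.05 for SW against ND and from -0.19 to 0.05 for HFD against ND, and for Hspd1 from -0.34 to 0.09 and from -0.31 to 0.12. Since the genes share a start region, 112 annotated exonic bases lie in both.

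**Figure D3:**
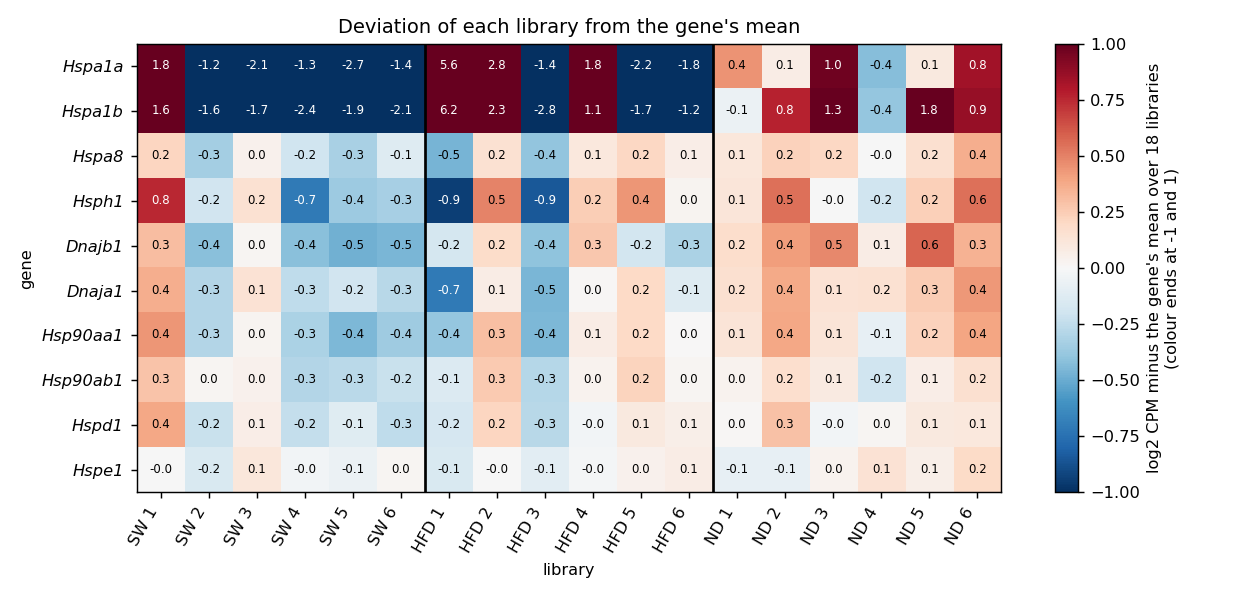
Deviation of each library (columns, by diet) from the gene's mean over 18 libraries in log2 CPM (colour, ending at -1 and 1, and printed value) for the 10 chaperone genes (rows). HFD 1 has the highest values of Hspa1a and Hspa1b beside low values of Hspa8, Hsph1 and Dnaja1, and SW 1 has high values in most rows.

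Most chaperones were high in the same libraries and low in the same libraries. Of the 45 pairs of members, 24 were correlated over the 18 libraries once each diet's mean was removed (Pearson's r of log2 CPM, 100000 permutations within diets, Benjamini-Hochberg adjusted over 45 pairs), and 26 by Spearman's rho. With the mean of each replicate set within a diet removed as well, 26 pairs passed by Pearson's r. All 21 pairs among Hspa8, Hsph1, Dnajb1, Dnaja1, Hsp90aa1, Hsp90ab1 and Hspd1 passed, with r between 0.65 and 0.95. With the 2 libraries farthest from the median of the first gene left out, r stayed between 0.51 and 0.94. For this and later r with libraries left out, the diet means of all 18 libraries stayed in use. Such values are therefore not within-diet r of the remaining libraries alone. Over all 18 libraries the highest r was that of the HSP110 Hsph1 with Hsp90aa1, at r = 0.953 and rho = 0.973. Each had a permutation p of 1e-05, the smallest these permutations can give, and the adjusted values were 9e-05 and 0.00015. Values of 1 library share its RNA, sorting and depth, and their part in these correlations was not tested.

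Hspe1 and the inducible pair passed in few of their pairs with the other 7. Hspe1 passed with 2 of the 7, Hspa8 at r = 0.58 and rho = 0.60 and Dnaja1 at r = 0.53 and rho = 0.54, with adjusted permutation p-values for r of 0.0213 and 0.0388 over the 45 pairs; without the 2 farthest libraries r was 0.46 and 0.49. Its r with Hspd1, across the start region they share, was 0.30 and its rho 0.42, with adjusted permutation p-values of 0.349 and 0.135. Of the 16 pairs of Hspa1a or Hspa1b with another member none passed by Pearson's r and 2 by Spearman's rho, both with Dnajb1, at rho = 0.756 for Hspa1b and rho = 0.620 for Hspa1a. For Hspa1b and Dnajb1 r was 0.54 over all libraries and 0.73 without HFD 1 and SW 1. Hspa1a and Hspa1b correlated with each other at r = 0.931 and rho = 0.841, with adjusted permutation p-values of 0.00217 and 0.00403, and r was 0.835 without HFD 1 and SW 1; the reads they share bear on this pair.

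**Figure D4:**
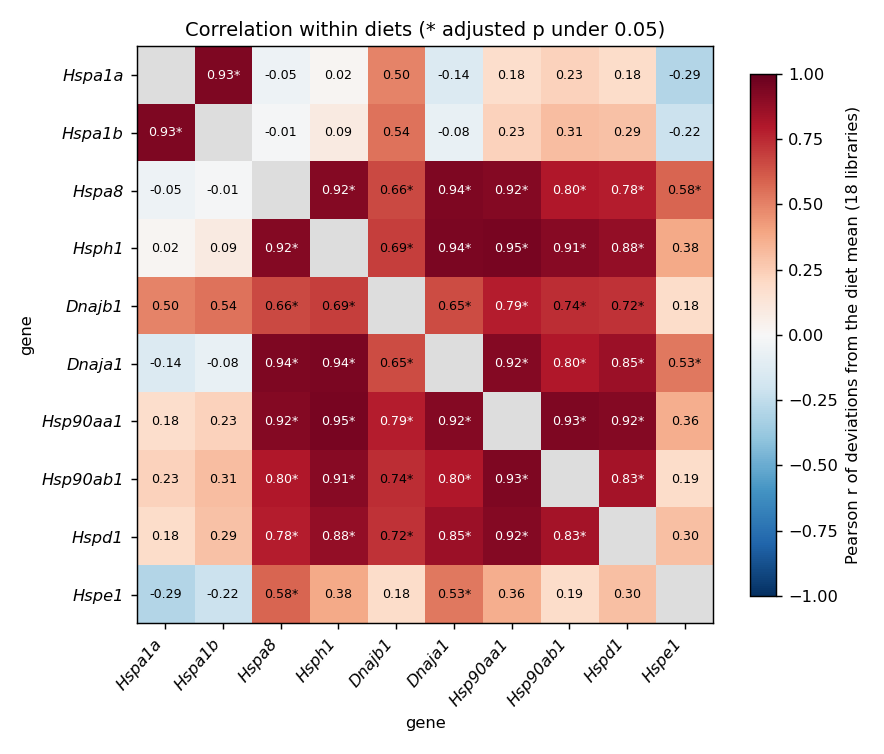
Pearson's r (colour and printed value) for each pair of the 10 chaperone genes over 18 libraries, from log2 CPM with the mean of each diet removed; a star marks a permutation p under 0.05 after adjustment over 45 pairs. The 7 genes other than Hspa1a, Hspa1b and Hspe1 have r of 0.65 to 0.95 with each other, and the rows of Hspa1a and Hspa1b lie between -0.29 and 0.31 outside their own pair and Dnajb1.

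**Figure D5:**
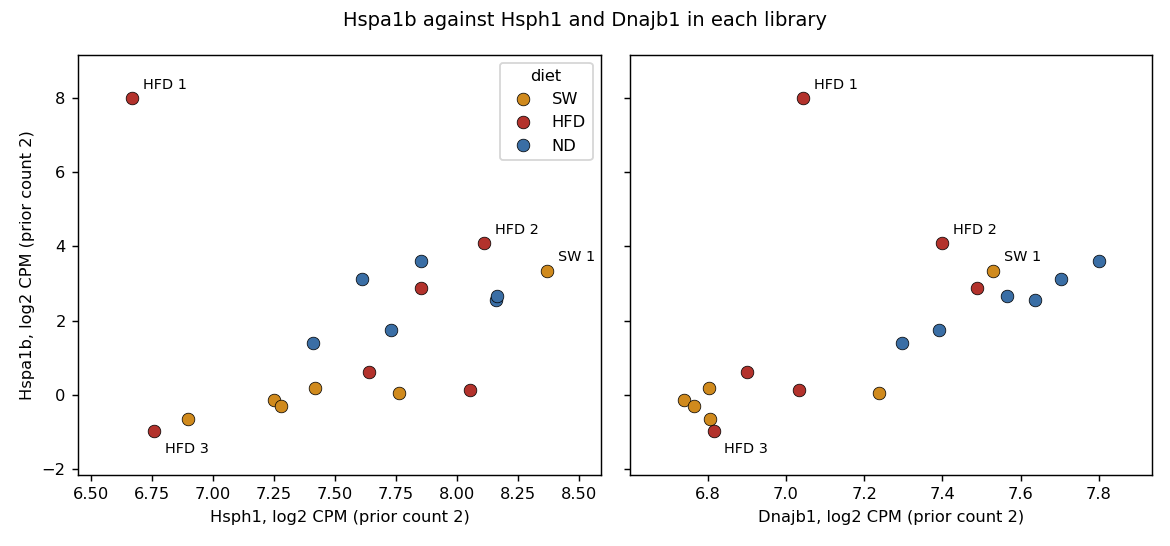
Hspa1b (y axis) against Hsph1 (left) and Dnajb1 (right) in each of the 18 libraries, all on the log2 CPM scale with a prior count of 2 and coloured by diet. HFD 1 stands highest in Hspa1b and lowest in Hsph1. With HFD 1 and SW 1 left out but the diet means of all 18 libraries kept, r of Hspa1b is 0.47 with Hsph1 and 0.73 with Dnajb1.

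The gap in HFD 1 can be read from its ranks among the 18 libraries. It was the highest library for Hspa1a and Hspa1b and the lowest for Hspa8, Hsph1 and Dnaja1, with 1659.8, 102 and 249.8 CPM. For Hspe1 it was the second lowest library and for Hsp90aa1 the third lowest. Dnajb1 stood nearer the middle in it, at 132 CPM. HFD 3, the other HFD library low in most members, had the lowest Hspa1b of all libraries, 0.366 CPM, beside 108 CPM of Hsph1. SW 1 was instead high in most members, though in the middle for Hspe1, with the highest levels of all 18 libraries for Hsph1, Hsp90aa1, Hsp90ab1 and Hspd1, at 330.0, 505, 2425 and 279.7 CPM.

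Among 8271 genes with a symbol and a mean of at least 10 CPM, those most like the group over the 18 libraries were ranked by Pearson's r between their deviation from the diet mean and the mean scaled deviation of the 10 members. The 8 highest were Ywhah, a 14-3-3 protein, at r = 0.90, Fkbp4, Chordc1, Cct6a, Ahsa1, Ubxn4, Trim65 and Stip1, the last at 0.87. Fkbp4 encodes an HSP90-binding immunophilin, Ahsa1 an activator of the HSP90 ATPase, Stip1 the adaptor that joins HSP70 to HSP90, Chordc1 an HSP90-binding protein and Cct6a a subunit of the cytosolic chaperonin TRiC. These values are a description, since the score was built from the same libraries. Ywhah, the most alike, averaged 175 ± 13.0 CPM in SW, 179 ± 13.6 CPM in HFD and 195 ± 6.46 CPM in ND (SD, n = 6 each).

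Other genes of the pathway were examined in 7 lists. Of the HSF1 axis, which holds Hsf1, its relatives and further HSF1 targets, 18 of 22 genes were tested and none was called against ND. The small heat shock protein genes Hspb1, Hspb8 and Cryab and the collagen chaperone gene Serpinh1 were the 4 that did not pass the filter. Hsf1 itself averaged 95.3 CPM in SW, 89.0 CPM in HFD and 90.4 CPM in ND. The smallest unadjusted p-values of the list were those of Hsf2, another heat shock factor, and Dnajb4, an HSP40, for SW against ND, both with a log2 fold change of -0.33 and edgeR adjusted p-values of 0.612 and 0.637. For HFD against ND they were those of Ahsa2, a relative of Ahsa1, at -0.40, and Cacybp, at -0.23, with edgeR adjusted p-values of 0.332 and 0.335. The list's median log2 fold change was -0.04 for SW and -0.03 for HFD against ND, beside 0.00 and 0.01 over all tested genes.

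Bag5, a nucleotide exchange factor of HSP70, was the only gene of these 7 lists called against ND, and it fell in HFD. Of its list, the 22 other cytosolic HSP70, HSP110 and HSP40 genes with the BAG cochaperones, 1 was called in HFD against ND and none in SW against ND. Over all tested genes 1.62% and 0.0146% were called in these comparisons, so 1 call is no result about the lists as a whole. The lowest, median and highest levels of Bag5 were 22.1, 28.7 and 32.5 CPM in SW, 22.7, 26.2 and 33.5 CPM in HFD and 31.6, 34.2 and 38.2 CPM in ND libraries. The log2 fold change was -0.35 ± 0.09 for HFD against ND, with an edgeR adjusted p of 0.0439, and -0.30 ± 0.09 for SW against ND, with an adjusted p of 0.326. The call was lost in 11 of 18 fits that left out 1 library, with adjusted p-values of 0.0556 to 0.111, and the value within replicates 1 and 2 was -0.12. Hspa1l, the HSP70 gene next to Hspa1a, was low and had a log2 fold change of -1.15 ± 0.36 for HFD against ND, with an edgeR adjusted p of 0.101.

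The other lists held no called gene against ND in this fit. They were 13 HSP90 cochaperones, 14 subunits of TRiC and prefoldin, 12 genes of mitochondrial proteostasis, 14 chaperones of the endoplasmic reticulum and 20 immediate early genes. Of TRiC and prefoldin 11 of 14 genes were below 0 in SW and 10 of 14 in HFD against ND, with medians of -0.05 and -0.04. Of all tested genes 49.1% and 47.6% were below 0 in these comparisons. Tcp1, a TRiC subunit, had -0.17 ± 0.05 for SW and -0.15 ± 0.05 for HFD against ND, with edgeR adjusted p-values of 0.390 and 0.187, and the prefoldin gene Vbp1 had -0.15 for SW against ND, with an adjusted p of 0.558. The endoplasmic reticulum chaperones pointed the other way in HFD, with 12 of 14 above 0 against ND and a median of 0.10, where 52.4% of all tested genes were above 0. Pdia3 and Calr, which fold glycoproteins there, had 0.17 ± 0.05 and 0.16 ± 0.05, with edgeR adjusted p-values of 0.102 and 0.123. With the replicate set (1 and 2 or 3 to 6) as a term both rose in HFD, at edgeR adjusted p-values of 0.0274 and 0.0401. Immediate early genes are known to respond to stimulation and to tissue handling. Of them 15 of 20 were below 0 in SW against ND with a median of -0.14, beside 49.1% of all tested genes. In HFD against ND 11 of 20 were above 0 with a median of 0.02, beside 52.4% of all tested genes. For SW against HFD 18 of 20 were below 0 with a median of -0.21, where 51.3% of all tested genes were below 0, and none was called. Btg2 and Ier5 of that list had -0.26 and -0.19 for SW against ND, with edgeR adjusted p-values of 0.362 and 0.487, and Fosl2 and Egr2 had -0.28 and -0.29 for HFD against ND, with adjusted p-values of 0.179 and 0.237; without HFD 2 Fosl2 was called, at 0.0326. In the marker lists 1 gene was called, in HFD against ND, where 1.62% of all tested genes were. This was the B cell gene Ighm, with a log2 fold change of 0.24 ± 0.06 and an edgeR adjusted p of 0.0361. That call was lost in 9 of 18 fits that left out 1 library, with adjusted p-values of 0.0558 to 0.0957.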

How the data were processed

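For each of 18 libraries the authors deposited 1 table with counts of reads per gene and FPKM values (counts per gene scaled by gene length and library total). The submitters' processing notes name fastp and the builds GRCm38 and mm10, with no role given. The aligner, the counter, its annotation and its handling of strand and of reads that match several genes were not given in the sources used here. Counts were used for tests, and FPKM for levels between genes. Gene IDs were paired with symbols and coordinates of GENCODE M21, which held 52125 of 56748 IDs.

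Counts were normalised by TMM and tested with edgeR 4.0.16 (filterByExpr, robust quasi-likelihood fit, diet as the only term, all 18 libraries), with Benjamini-Hochberg adjustment over 13690 genes. A test on simulated data preceded it. SE is the log2 fold change divided by the square root of F, and 95% intervals use 15 degrees of freedom. CPM and log2 CPM (prior count 2) come from the same normalisation. DESeq2 1.42.0, limma 3.58.1 on log2(FPKM + pseudocount), other filters and scalings, replicate sets and leaving out libraries were alternatives. The exact permutation test of single genes was two-sided over all 924 divisions of 12 libraries. That test, adding the counts of Hspa1a and Hspa1b, and leaving out HFD 1 with SW 1 were chosen after seeing the data.

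Sequences are from RefSeq starts of GRCm38.p6. The members and the lists were chosen with earlier results of these data known. From each list of other pathway genes, the text names those called and, of the 2 with the smallest p per comparison with ND, those with an unadjusted p under 0.05; the others are given as counts.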

Additional observations from a re-analysis of the deposited data

Results flagged for a closer look

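In 3 of 30 groups examined (10 chaperone genes in 3 diets of 6 libraries) a library stood apart, where the gap between the extreme library and its neighbour, divided by the group's range in log2 CPM, was over Dixon's 95% critical value for 6 libraries. Chance gives about 1 such group in 20. Hspa1a in SW was 1, since SW 1 held 3.04 CPM and the next library, SW 2, held 0.264 CPM, a ratio of 0.662. Hspa1b in SW was another, with 10.1 CPM in SW 1 and 0.991 CPM in SW 2 and a ratio of 0.793. These 2 are copies that share reads and the same library, so they are not separate observations. In ND, Hsp90ab1 was low in ND 4, at 1735 CPM, where the next lowest, ND 1, held 2042 CPM, a ratio of 0.639. HFD 1, with 254 CPM of Hspa1b, did not stand apart by this measure; its ratio was below that value.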

How the results depend on the processing

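No chaperone gene was called in SW against ND, HFD against ND or SW against HFD in the reported fit or under any of 31 alternatives; in the test of any difference 1 gene, Dnajb1, was called with DESeq2, without HFD 1 and SW 1 and without SW 1, so leaving out 1 library gave 0 to 1. Of 962 log2 fold changes under alternatives, 927 kept their sign and 35 did not. Within replicates 3 to 6 the values that turned were Hspa1a -0.41 and Hspa1b -1.56 for HFD against ND and Dnaja1 -0.051 for SW against HFD. Within replicates 1 and 2 they were Hspe1 0.010 for HFD against ND, Hspa1a 0.66, Hspa1b 0.24, Hsph1 0.0040 and Hsp90ab1 0.050 for SW against ND, and Hspa8 0.081, Hsph1 0.40, Hsp90aa1 0.12, Hsp90ab1 0.071, Hspe1 -0.010 and Hspd1 0.074 for SW against HFD. Without HFD 1 and SW 1 they were Hspa1b -0.27 for HFD against ND and Dnaja1 -0.11 and Hspe1 -0.012 for SW against HFD. As a difference of mean log2 CPM, in the exact permutation test, Hspa1b was -0.063 for HFD against ND. Leaving out 1 library gave ranges for HFD against ND of -0.27 to 3.16 for Hspa1b and -0.083 to 0.026 for Hsp90ab1, and for SW against HFD of -0.27 to 0.081 for Hsph1, -0.023 to 0.16 for Dnaja1, -0.014 to 0.040 for Hspe1 and -0.13 to 0.022 for Hspd1. Apart from the libraries left out, the cause was not tested. Same-numbered libraries of different diets correlated at -0.031 to 0.219 in their deviations, over 0.1 in 7 of 18 pairs, among them all of replicates 1 and 2, and 6 of 18 libraries correlated best with their own number; the numbers were not taken as pairs. With a replicate block 0 members were called, Dnajb1 had -0.58 for SW and -0.44 for HFD against ND, and 1 of 10 members held an unadjusted p under 0.05 in each, beside 9.09% and 19.0% of all tested genes. Pdia3 and Calr were called for HFD against ND with the block, at 0.0296 and 0.0324. The call of Bag5 was also lost with limma on FPKM, at adjusted p-values of 0.0625 to 0.146 over 3 settings, and stayed with DESeq2 at 0.0138; that of Ighm was lost with limma on unfiltered FPKM, at 0.0932.

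Over all genes the counts called moved more. For HFD against ND there were 222 calls, 471 with DESeq2, 598 with the replicate block, 535 with the replicate set as a term, 41 with limma on unfiltered FPKM, 5 within replicates 1 and 2 and 89 to 301 with 1 library left out. For SW against ND there were 2, with 52 by DESeq2, 31 without a filter, 49 with the block, 22 with the set term, 19 with these diets alone, 5 within replicates 3 to 6, 1 with DESeq2's size factors in edgeR, 0 within replicates 1 and 2 or with limma on FPKM, and 0 to 16 with 1 library left out. For SW against HFD there were 17, with 110 by DESeq2, 53 without a filter, 138 with the block, 116 with the set term, 2 within replicates 1 and 2, 1 with limma on FPKM, 0 with these diets alone and 0 to 44 with 1 library left out. For any difference there were 123, with 427 by DESeq2, 469 with the block, 444 with the set term, 216 without a filter, 5 within replicates 1 and 2 and 62 to 220 with 1 library left out. Without HFD 1 and SW 1 these counts were 330, 18, 32 and 261. Low counts limit Hspa1a, which in SW libraries other than SW 1 and in HFD 3, HFD 5 and HFD 6 rested on at most 4 reads.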

Other observations

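The genes whose levels ran most against the chaperone group were looked at after their values were seen. Over the 18 libraries and within diets the lowest Pearson's r with the group's mean scaled deviation were -0.877 for Vmac and -0.828 for Cenpb, and Slc35b2 was the fourth lowest, at -0.807. Slc35b2, which carries the sulfate donor of glycan sulfation into the Golgi, lies 104 bases from Hsp90ab1 on the other strand. It averaged 33.9 ± 5.55 CPM in SW, 32.4 ± 3.99 CPM in HFD and 32.9 ± 2.11 CPM in ND (SD, n = 6 each). Its lowest SW library was SW 1, at 23.8 CPM, where Hsp90ab1 was highest. These correlations are descriptions over 18 libraries and were not tested.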
